A study of Mus musculus with 34 samples.

Results

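Contextual fear conditioning (CFC) was compared with the home cage in the ribosome-bound mRNA of somatostatin (SST) interneurons, using 6 of the 34 libraries of the series: 3 labelled CFC and 3 labelled home cage, all of batch 4. Both groups were C57/BL6 mice of genotype Sst:Cre/Ribotag at postnatal day 60. In these mice Cre expressed from the Sst locus switches on an HA-tagged copy of the ribosomal protein Rpl22, and mRNA is pulled down with the tagged ribosomes. By their labels the groups differed in treatment alone: CFC mice received foot shocks in a conditioning context, and control mice stayed in the home cage. The labels give the tissue as cortex and hippocampus, while the extraction text speaks of cortices. The interval between conditioning and dissection, and the number of mice behind a library, are not given in the sources used here, so the p-values below measure the spread between libraries, which may be partly technical. RNA from before the pull-down was not analysed here, and a pull-down keeps some RNA of other cells. The study asked which genes change in these interneurons during associative learning.

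Neuronal firing and synaptic input raise calcium and MAP kinase signaling, which within minutes switches on immediate early genes through the factors CREB and SRF. Many of their products are transcription factors (Fos, Junb, Egr and Nr4a proteins) that in turn drive slower genes, while others, such as the phosphatase Dusp1, shut MAP kinase signaling down again. SST interneurons inhibit the dendrites of pyramidal cells and are known to control how many neurons take part in a fear memory.

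Library totals ranged from 15578007 to 20271874 counts. Replicates of a group were separate libraries: their counts differed well beyond sampling noise (chi-square of 16.1 to 33.3 per degree of freedom). Home cage replicate 1 and CFC replicate 1 had 0 and 1 count on Y-linked genes and the other 4 libraries 1569 to 2175, so each group held 1 library from females and 2 from males by these counts. Levels are given as CPM, counts scaled to library size with TMM factors, always in the order of replicates 1, 2 and 3.

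The libraries carried the defining transcripts of SST cells. Sst itself stood at 5882, 5512 and 5854 CPM in the home cage and 6084, 6004 and 5697 CPM after CFC. Per kilobase of exon, Sst had a mean of 7974 CPM in the home cage, Npy 5250, Gad1 (GABA synthesis) 255, Pvalb, the marker of another interneuron class, 242, and Slc17a7, the glutamate transporter of excitatory neurons, 25. The 12 SST markers tested, which include Lhx6 and Grin3a, had log2 fold changes between -0.10 and 0.12 (median 0.05), and 0 were called by edgeR or DESeq2, with 0 at an unadjusted p under 0.05. Pvalb was uneven between libraries of the same group, at 478, 189 and 87.3 CPM in the home cage and 221, 423 and 240 CPM after CFC. This spread did not follow the treatment.

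Of the 6 genes that passed the test across all 14614 genes (0.0411%), 5 were higher after CFC and all 5 are immediate early genes. Promoter windows (the 250 bases before the annotated start, from RefSeq on GRCm38.p6) were at hand for 4 of these 5. They are shown because each holds at least 1 core of the cAMP response element, the sequence CREB binds. Capitals mark the full element TGACGTCA, its core TGACG on either strand (CGTCA on the strand shown) and the Egr site GCGNGGGCG on either strand.
Nr4a1 (chr15:101266596-101266845, plus strand): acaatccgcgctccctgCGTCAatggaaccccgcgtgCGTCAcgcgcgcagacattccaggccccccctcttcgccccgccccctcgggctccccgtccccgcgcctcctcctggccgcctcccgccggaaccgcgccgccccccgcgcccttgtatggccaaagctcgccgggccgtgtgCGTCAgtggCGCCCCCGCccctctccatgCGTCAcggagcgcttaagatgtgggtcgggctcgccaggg
Fos (chr12:85473640-85473889, plus strand): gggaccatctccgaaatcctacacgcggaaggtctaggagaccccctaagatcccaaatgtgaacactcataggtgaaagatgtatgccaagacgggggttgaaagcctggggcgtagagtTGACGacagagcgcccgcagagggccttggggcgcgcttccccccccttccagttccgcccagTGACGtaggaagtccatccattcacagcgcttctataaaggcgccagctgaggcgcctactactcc
Junb (chr8:84978749-84978998, minus strand): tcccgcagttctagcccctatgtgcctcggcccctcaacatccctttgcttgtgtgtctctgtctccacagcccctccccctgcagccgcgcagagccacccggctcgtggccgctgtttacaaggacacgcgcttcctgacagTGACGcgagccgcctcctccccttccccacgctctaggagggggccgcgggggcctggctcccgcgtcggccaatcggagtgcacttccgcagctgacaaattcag
Dusp1 (chr17:26508473-26508722, minus strand): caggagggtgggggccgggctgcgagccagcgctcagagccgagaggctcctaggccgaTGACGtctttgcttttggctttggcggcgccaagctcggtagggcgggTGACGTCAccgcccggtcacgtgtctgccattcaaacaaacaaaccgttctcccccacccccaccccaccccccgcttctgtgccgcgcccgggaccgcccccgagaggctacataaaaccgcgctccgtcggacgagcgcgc
The Nr4a1 window held 4 cores and 1 Egr site, and the Dusp1 window 1 full element, which contains overlapping cores, and 1 further core. The core occurred in 17 of the 28 rapid activity-induced genes with a window (60.7%), in 4 of 17 vascular genes (23.5%) and in 3259 of all 10776 tested genes with a window (30.2%). The full element was found in 3.16% of all windows and the Egr site in 10.6%, with 10 of the 28 rapid genes (35.7%) holding the latter. The window of Acta2, the single gene that was lower, held none of these 3 sequences, and most of all windows held no core either. The SRF site (CArG box) was found in 0 of the 4 windows of genes called higher. It occurred in 2 of the 28 rapid genes (7.14%) and in 1.37% of all windows. These matches describe the letters only and were not tested for binding. Sequence beyond the 250 bases was not searched, and Egr1 had no window.
Acta2 (chr19:34255374-34255623, minus strand): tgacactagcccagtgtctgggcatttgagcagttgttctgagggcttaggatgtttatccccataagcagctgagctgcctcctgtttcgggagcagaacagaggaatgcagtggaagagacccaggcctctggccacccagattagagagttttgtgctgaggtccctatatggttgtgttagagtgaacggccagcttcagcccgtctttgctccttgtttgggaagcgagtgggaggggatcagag

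Egr1, a zinc finger factor and the gene with the smallest p, stood at 106, 81.7 and 84.7 CPM in the home cage libraries and at 460, 422 and 440 CPM in the CFC libraries. The lowest CFC library had 3.97 times the level of the highest home cage library. The rise over all libraries was 4.85-fold (log2 2.28 ± 0.11 SE, edgeR adjusted p = 0.000177, 95% interval 2.02 to 2.53). Nr4a1, an orphan nuclear receptor, had 23.5, 15.3 and 13.8 CPM in home cage libraries and 85.8, 104 and 93.3 CPM in CFC libraries. That was 5.40-fold higher (log2 2.43 ± 0.21, adjusted p = 0.011, edgeR). Fos, the partner of Jun proteins in the AP-1 factor, rose the most of the 5, from 26.7, 13.8 and 9.38 CPM to 135, 151 and 143 CPM. The groups were 5.06-fold apart at their nearest libraries, and the estimate was 8.63-fold (log2 3.11 ± 0.33, edgeR adjusted p = 0.0275).

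Smaller rises were found for the other two. Junb, also an AP-1 subunit, went from 55.9, 38.8 and 38.6 CPM to 116, 113 and 108 CPM (2.53-fold, log2 1.34 ± 0.16, adjusted p = 0.0438 by edgeR). Dusp1 had 72.4, 56 and 61.8 CPM in home cage libraries against 131, 152 and 150 CPM after CFC (2.27-fold, log2 1.19 ± 0.12, edgeR adjusted p = 0.0275). For all 5 genes home cage replicate 1 was the highest of its group, and the 3 CFC libraries lay close together. Direction held in each sex taken alone: the log2 ratio with a pseudocount of 1 was 2.10 in the female pair and 2.36 in males for Egr1, 1.83 and 2.68 for Nr4a1, 2.30 and 3.58 for Fos, 1.04 and 1.49 for Junb, and 0.85 and 1.34 for Dusp1. Whether these differ between the sexes was not tested. As a level per kilobase of exon, Egr1 after CFC had 98.2 CPM, Fos 60.8, Junb 48.9, Dusp1 43.6 and Nr4a1 26.9.

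**Figure D1:**
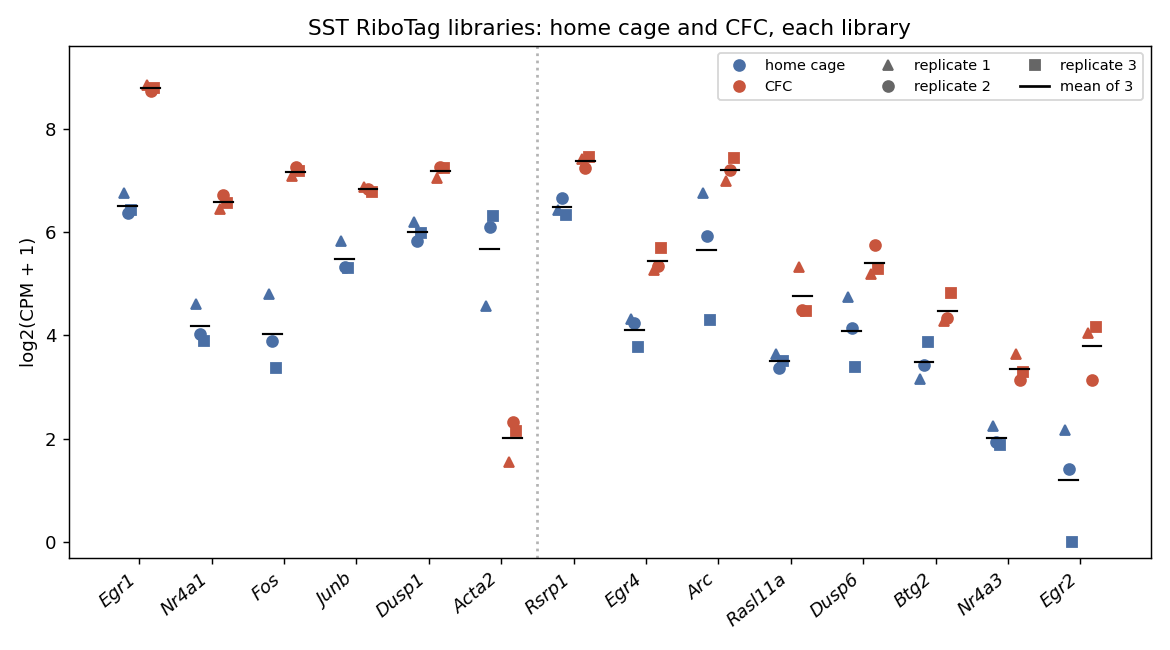
Levels of the 6 genes that passed the test (left of the dotted line) and of further genes that did not, as log2(CPM + 1) per library. Blue points are home cage and red points CFC libraries, symbols mark replicates and black bars the means of 3. The red points of Egr1, Nr4a1, Fos, Junb and Dusp1 lie above all blue points, and those of Acta2 below them.

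The call on Egr1 was kept whichever library was left out (log2 2.21 to 2.41). The other 5 genes kept their sizes but missed the threshold when any library except home cage replicate 1 was left out: Nr4a1 gave 2.29 to 2.50 with adjusted p from 0.0578 to 0.136 (edgeR), and Fos 2.82 to 3.15 with 0.0578 to 0.256. Fos and Acta2 also missed it when no filter on low counts was used (adjusted p = 0.239 and 0.181, edgeR). They did so again when genes under a mean of 5 CPM were left out (0.125 and 0.116), a setting chosen after the data were seen. With sex as a term all 5 stayed higher and the lower genes numbered 5 (Acta2, Tns1, Pdgfrb, Flna and Myl9).

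Among 40 rapid activity-induced genes 36 passed the filter on low counts. Of these, edgeR called 5 higher (0.0342% of all genes tested) and 0 lower, with 2 lower at an unadjusted p under 0.05. Of all genes 4.01% were lower at that p. DESeq2 called 7 of the list higher and 1, the scarce Amigo3, lower, against 0.0977% and 0.51% of all genes. In the edgeR fit 28 values were positive and 8 negative, and the median log2 fold change was 0.45 against -0.0038 over all genes. Their summed level was 961, 898 and 863 CPM in the home cage and 1824, 1758 and 1917 CPM after CFC. In 16 of the 36 every CFC library exceeded every home cage library, where 4.8% of all genes did so. In 2 every CFC library was lower, against 5.8% of all genes.

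The Egr family and its Nab corepressors, which bind Egr proteins and damp their activity, all had positive values, 6 of 6 with a median of 1.11. Egr4 had 19, 17.8 and 12.7 CPM in the home cage and 37.5, 39.8 and 50.6 CPM after CFC. These did not overlap, but the log2 value of 1.37 ± 0.21 missed the threshold (adjusted p = 0.182, edgeR). It passed with DESeq2 (adjusted p = 4.36e-06) and when genes under a mean of 5 CPM were left out. Egr2 was scarce, at 3.51, 1.66 and 0 CPM against 15.6, 7.84 and 16.8 CPM (log2 2.97 ± 1.01, adjusted p = 0.799, edgeR). Nab1 had a log2 value of 0.84 ± 0.41, also without a call.

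In the Nr4a family the members parted. Nr4a3 had 3.74, 2.85 and 2.65 CPM in home cage libraries and 11.4, 7.78 and 8.80 CPM after CFC, again without overlap (log2 1.60 ± 0.36, adjusted p = 0.525, edgeR; 0.0144 with DESeq2). Nr4a2 stood at 12.2, 10.5 and 14 CPM and then at 13.3, 10.8 and 11.4 CPM. Its groups overlapped fully, with an estimate of -0.05 and a 95% interval of -0.61 to 0.50, which leaves out a change of the size seen for Nr4a1.

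Of 7 AP-1 subunits tested, Fos and Junb were called and 5 values were positive. Jun, at 83.9, 76.2 and 85.5 CPM and then 92.2, 84.1 and 102 CPM, had a log2 value of 0.18 ± 0.11. Fosb, a strongly inducible Fos relative, stayed near the detection limit with 0.747, 1.90 and 0 CPM in the home cage and 1.53, 1.69 and 1.82 CPM after CFC (log2 0.93 ± 1.21). At that level a change could not be resolved.

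Feedback regulators of MAP kinase signaling had 12 positive and 7 negative values among 19 (median 0.17), with Dusp1 as the gene called by edgeR. Dusp6, a phosphatase of ERK, had 25.7, 16.7 and 9.48 CPM against 35.3, 52.8 and 37.9 CPM (log2 1.28 ± 0.34, adjusted p = 0.532, edgeR). The lowest CFC library lay above the highest home cage library, and DESeq2 called the gene. Spry2 and Spry4, inhibitors of receptor tyrosine kinase signaling, had values of 0.67 ± 0.23 and 0.42 ± 0.18 and also no overlap. Btg2, which promotes mRNA deadenylation, had 7.88, 9.80 and 13.6 CPM in the home cage and 18.4, 19.3 and 27.1 CPM after CFC (log2 1.05 ± 0.28). Its relative Tob1 had a value of 0.52 ± 0.18. Neither passed.

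Arc, an immediate early gene whose product acts at synapses, differed widely among home cage libraries, with 106, 59.5 and 18.7 CPM. After CFC the libraries had 125, 147 and 172 CPM. The groups did not overlap, yet the estimate of 1.27 ± 0.51 was not called (adjusted p = 0.881, edgeR). Leaving out 1 library at a time moved it between 0.83 and 1.93.

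Slower activity-regulated genes, which include secreted factors and channels, were split by sign: 22 positive and 21 negative values of 43 tested, and a median of 0.01. In 8 (18.6%) every CFC library was the higher, against 4.8% of all genes, and in 2 (4.65%) the lower, against 5.8%. By edgeR 0 were called, with 5 higher and 1 lower at an unadjusted p under 0.05, where 1.56% and 4.01% of all genes were. DESeq2 called 1 higher, against 0.0977% of all genes. That was Rasl11a, a small GTPase, which had 11.5, 9.38 and 10.3 CPM in the home cage and 39.2, 21.6 and 21.1 CPM after CFC (log2 1.39 ± 0.28, adjusted p = 0.402 by edgeR and 0.00205 by DESeq2). All 3 CFC libraries were higher and replicate 1 stood out. Gpr3, a constitutively active receptor, had 0.76 ± 0.23, and Plk2, a synaptic kinase, 0.26 ± 0.08. The receptor-binding pentraxin Nptx2 had 7.30, 12.5 and 7.47 CPM against 12, 10.5 and 20.9 CPM, with overlap.

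The signaling components upstream, such as CREB, its coactivators, SRF and the MAP kinases, had 17 positive and 19 negative values of 36 and a median of -0.01. Neither edgeR nor DESeq2 called any of them (0 genes), and 2 were lower at an unadjusted p under 0.05, against 4.01% of all genes. Creb1 itself had a log2 value of 0.43 ± 0.20, and Crebbp, a histone acetyltransferase that CREB recruits, -0.44 ± 0.13. Neither passed, although neither overlapped between groups. Of 19 glucocorticoid-responsive genes tested, edgeR and DESeq2 called 1, Dusp1, which also belongs to the rapid list, and 7 values were positive (median -0.04). Clock genes had 9 values of each sign (median 0.0029) and chaperones 13 positive and 14 negative. By edgeR 0 were called in both lists, with 2 clock genes and 1 chaperone higher and 1 chaperone lower at an unadjusted p under 0.05. Of all genes 1.56% were higher and 4.01% lower at that p. DESeq2 called 1 chaperone lower, the small heat shock protein Hspb1 (log2 -2.29, adjusted p = 0.0229), against 0.51% of all genes. Dnajb1 had 0.23 ± 0.09 and Per1 0.49 ± 0.27.

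**Figure D2:**
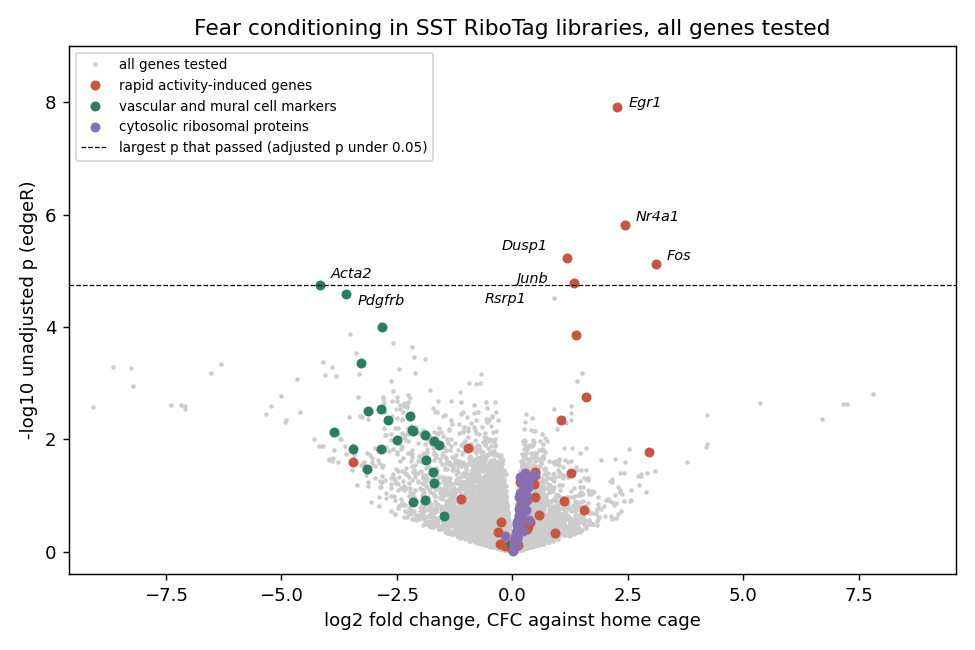
Log2 fold change against -log10 of the unadjusted p for the 14614 genes tested, with 3 gene lists coloured. The dashed line marks the largest p that passed. Above it lie 5 genes on the right, all from the rapid list, and Acta2 on the left.

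Transmitter and excitability genes of SST cells gave small estimates. Among 17 interneuron neuropeptides 12 values were positive (median 0.15). Cort, the somatostatin relative cortistatin, had 81.7, 93.4 and 70.6 CPM in the home cage and 96.1, 109 and 104 CPM after CFC, without overlap but uncalled (log2 0.33 ± 0.12). Tac2 had 0.49 ± 0.20 and Crh 0.34 ± 0.17, and Npy 0.12 ± 0.08. For Sst the 95% interval ran from -0.08 to 0.17, so a change of the size seen for Dusp1 lay outside it. Gad1 (0.07, interval -0.21 to 0.35) and Gad2 (0.06, interval -0.11 to 0.24) were likewise held within narrow bounds.

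Receptor and channel lists had medians near that of all genes: 0.10 for 13 GABA-A subunits, 0.04 for 17 ionotropic and -0.07 for 7 metabotropic glutamate receptors, 0.05 for 30 potassium, -0.04 for 8 sodium and 0.02 for 15 calcium channel genes, and -0.02 for 26 synapse organizers. Of these genes 0 were called by edgeR or DESeq2, and 1 calcium channel gene (higher), 1 potassium channel gene and 1 synapse organizer (both lower) had an unadjusted p under 0.05. The acetylcholine and monoamine receptor list had 11 values of each sign among 22 (median 0.02), and 0 were called by edgeR or DESeq2. Its 2 members with such a p were the adrenergic receptors Adra1a (4.71, 7.31 and 5.01 CPM against 9.27, 9.46 and 10.3 CPM) and Adra1b (12, 11.2 and 9.38 CPM against 14, 17.8 and 18.7 CPM). Both were without overlap, with log2 values of 0.77 ± 0.32 and 0.63 ± 0.24. Of all genes 5.57% reached that p, and 1.56% did so with a positive value.

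Ribosomal proteins (77 positive and 1 negative of 78, median 0.15) and nuclear-encoded subunits of oxidative phosphorylation (71 and 3 of 74, median 0.11) leaned to the positive side by small amounts. By edgeR and by DESeq2 0 were called, with 3 ribosomal and 0 respiratory genes higher at an unadjusted p under 0.05. Of all genes 1.56% were. Rpl4 had 358, 373 and 372 CPM against 418, 432 and 386 CPM (log2 0.16 ± 0.07), and Ndufa9 329, 279 and 278 CPM against 333, 354 and 316 CPM (0.18 ± 0.09). Every CFC library was the higher for 14 of the 78 ribosomal protein genes and for 1 of the 74 respiratory genes, where 4.8% of all genes did so. The list medians moved between 0.08 and 0.21 for ribosomal proteins and between 0.05 and 0.22 for the respiratory chain when 1 library was left out. With a vascular score as covariate, the score given with the vascular markers, the respiratory median turned to -0.08.

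**Figure D3:**
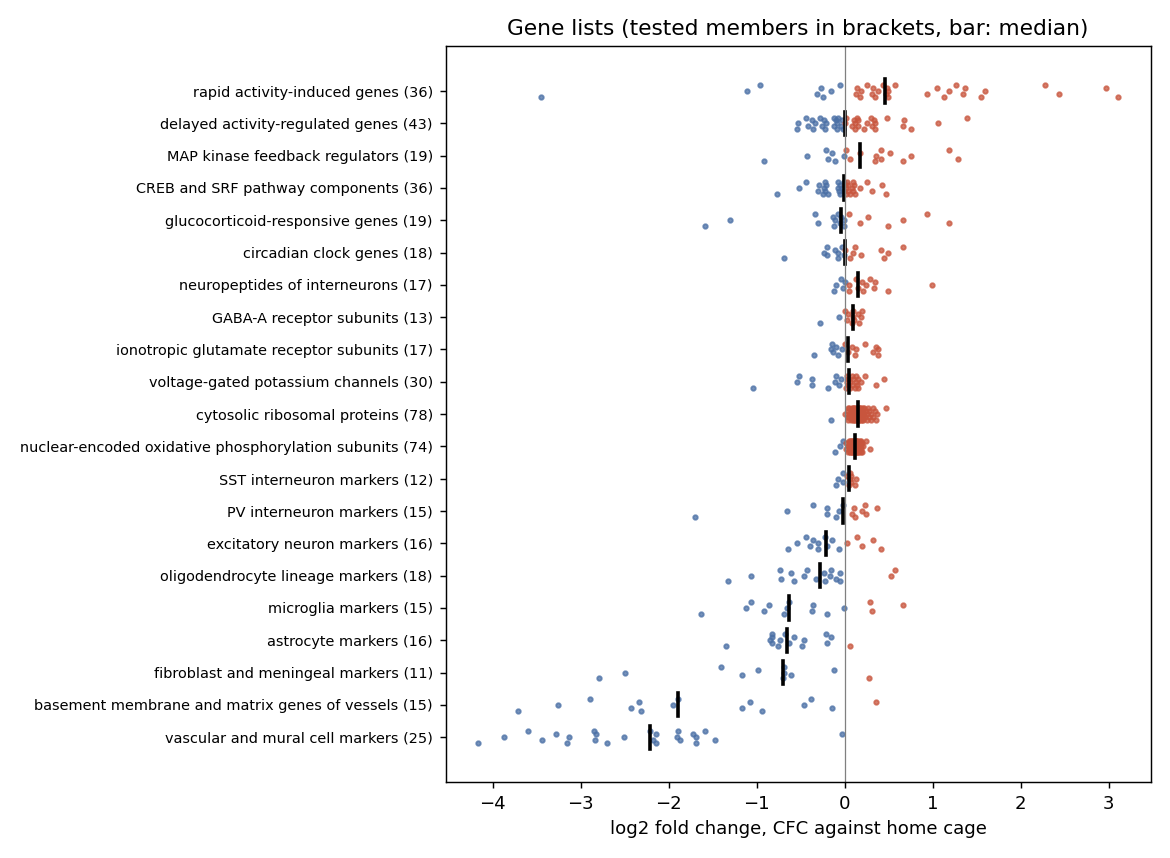
Log2 fold changes of the tested members of each gene list shown, 1 point per gene and a black bar at the list's median. Activity-induced genes reach furthest to the right, and the medians of the vascular, basement membrane and other non-neuronal lists shown lie to the left of 0. The choroid plexus and blood lists are not drawn.

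On the lower side 1 gene passed. Acta2, the actin of vascular smooth muscle, had 22.7, 67.7 and 78.6 CPM in the home cage and 1.94, 4.02 and 3.44 CPM after CFC. All CFC libraries were far below the home cage, 18.0-fold by the estimate (log2 -4.17 ± 0.50, adjusted p = 0.0438, edgeR). It was not called by limma voom (adjusted p = 0.907). The gene is a marker of another cell type, and its neighbours in the ranking were of the same kind: Pdgfrb, the receptor of pericytes, had 10.9, 19.1 and 23.5 CPM and then 0.821, 1.88 and 1.72 CPM (log2 -3.59 ± 0.45, edgeR adjusted p = 0.0548), and Myl9, a smooth muscle myosin light chain, 14.9, 46.9 and 41.2 CPM and then 3.99, 5.70 and 4.78 CPM (log2 -2.83 ± 0.42, adjusted p = 0.16).

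As a list, 25 of 26 vascular and mural markers were tested and all 25 values were negative, with a median of -2.21. By edgeR 1, Acta2, was called (0.00684% of all genes were called lower), and by DESeq2 6 (0.51% of all genes). In the edgeR fit 20 had an unadjusted p under 0.05 on the lower side, where 4.01% of all genes did, and in 14 every CFC library was the lower, against 5.8% of all genes. The endothelial marker Cldn5 had 8.22, 79.6 and 27.7 CPM against 5.40, 8.49 and 3.97 CPM, with overlap at home cage replicate 1. Summed over the 24 markers other than Bsg, a gene also found in neurons and set aside here after its values were seen, the level was 254, 1391 and 741 CPM in the home cage and 173, 186 and 127 CPM after CFC. With Bsg, at a log2 value of -0.03, the sums were 1456, 2603 and 1833 CPM against 1356, 1369 and 1203 CPM. In bulk libraries fewer cells of a type and less RNA per cell cannot be told apart, nor can carry-over of free RNA in the pull-down.

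Most other non-neuronal lists lay on the same side. The exception was the choroid plexus and ependymal list, with 3 positive and 2 negative values of 5 (median 0.02). Blood cell markers had 5 of 5 negative values (median -0.42). Basement membrane genes had 14 of 15 negative values (median -1.90), among them Col4a2 with 15.9, 34 and 32.9 CPM against 9.44, 5.96 and 6.82 CPM. The list summed to 240, 555 and 457 CPM in the home cage and 256, 313 and 276 CPM after CFC. Without Lama4, set aside after its values were seen, the sums were 132, 436 and 274 CPM against 93.5, 111 and 118 CPM. Fibroblast markers had 10 of 11 (median -0.70), astrocyte markers 15 of 16 (median -0.65), microglia markers 12 of 15 (median -0.63) and oligodendrocyte markers 16 of 18 (median -0.28). The summed astrocyte level was 639, 803 and 604 CPM in the home cage and 453, 574 and 511 CPM after CFC, and that of microglia 94.1, 127 and 99.9 CPM against 80.1, 82.4 and 76.8 CPM, both without overlap. Excitatory neuron markers had 11 of 16 negative values (median -0.21), with Slc17a7 at 110, 150 and 144 CPM against 92, 80.8 and 126 CPM. By edgeR 0 genes of these lists were called, with 8 basement membrane, 3 fibroblast, 4 astrocyte, 3 microglia, 2 oligodendrocyte and 2 excitatory genes lower at an unadjusted p under 0.05. Of all genes 4.01% were lower at that p. DESeq2 called 5 basement membrane genes lower, among them Col4a2, and 1 gene each of the fibroblast (Col3a1), astrocyte (Acsbg1) and oligodendrocyte (Mal) lists. Over all genes DESeq2 called 0.51% lower.

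The activity genes have to be read beside these markers, since both moved with the treatment. A vascular score, taken as the average log2(CPM + 1) of that list, came to 3.17, 5.16 and 4.45 without conditioning and to 2.51, 2.61 and 2.28 with it. With this score as a covariate, which nearly coincides with the groups, Egr1 alone was called (log2 1.94), and Nr4a1, Fos, Junb, Dusp1 and Acta2 had values of 1.88, 2.23, 0.88, 0.87 and -2.48. Home cage replicate 1, with the least vascular signal of its group, also had the highest Egr1, Nr4a1, Fos, Junb and Dusp1. Relative to that library, the lowest CFC library had 3.97 times the level of Egr1, 3.66 times that of Nr4a1, 5.06 times that of Fos, 1.93 times that of Junb and 1.81 times that of Dusp1. Of 177 named genes 36 changed sign with the covariate, which is itself made from the vascular list. The part of these markers in the result was not tested further.

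**Figure D4:**
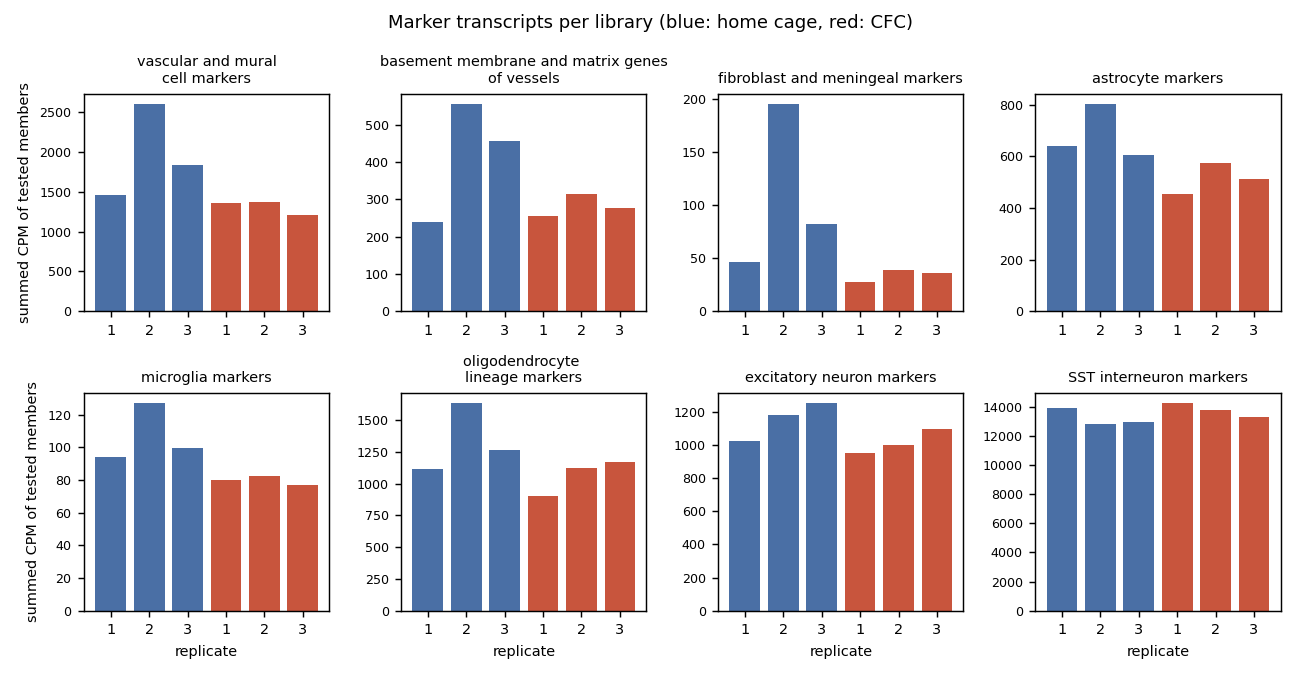
Summed CPM of the tested members of marker lists in each library, home cage in blue and CFC in red, with axes from 0. Vascular, fibroblast and astrocyte sums are highest in home cage replicate 2 and lower in every CFC library than in any home cage library, while the basement membrane sum of home cage replicate 1 lies below the CFC libraries and SST markers stay between 12811 and 14263 CPM.

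Over all genes tested, list members included, larger differences were more often on the lower side. In 701 genes (4.8%) every CFC library was higher than every home cage library, and in 848 (5.8%) every one was lower. With a difference of at least 2-fold and a mean of at least 5 CPM, 29 of 10666 genes were higher (0.272%) and 120 lower (1.13%). Among the 10073 of these genes that are on no list, 17 were higher (0.169%) and 100 lower (0.993%). Rsrp1, a nuclear arginine-serine-rich protein, was the closest to a call on the higher side, with 84.9, 100 and 79.8 CPM against 170, 150 and 173 CPM (log2 0.89 ± 0.11, edgeR adjusted p = 0.0558). Cpsf4, a subunit of the polyadenylation machinery, had 4.60, 6.12 and 5.35 CPM against 11.6, 16.1 and 18 CPM (log2 1.51 ± 0.29). Neither is on a list of activity genes, and neither overlapped between groups.

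At very low levels 4 tested genes had 0 counts in all home cage libraries and 8 in all CFC libraries. Of the latter, Tap1 (peptide transport for antigen presentation), Gypc (a membrane skeleton protein) and Rhod (a small GTPase) had 0 counts in all 3 CFC libraries and means of 2.17, 2.85 and 1.02 CPM in the home cage. Against a floor of 3 counts over the group they were at least 37.1-fold, 48.8-fold and 17.5-fold lower. Cdh3, a cadherin, had 0 counts in the home cage and 0.821, 2.72 and 1.23 CPM after CFC, at least 28.8-fold higher. None was called by edgeR. Genes at 0 in 1 group pass the filter on low counts only through the other group, so these values were partly set by the filter. DESeq2, which uses another estimate of the spread, called 18 genes higher (0.0977% of 18429) and 94 lower (0.51%), including all 6 of edgeR. Its further higher genes were led by Rsrp1, Egr4, Cpsf4, Rasl11a, Cdh3 and Nr4a3, and its lower genes by Pdgfrb, Myl9, Ahnak and Vim. The lower genes also held Gypc and Tap1 (adjusted p = 9.5e-05 and 0.00048, DESeq2), but not Rhod.

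How small a change could be seen depended on the level. The median half-width of the 95% interval was 0.22 on the log2 scale for genes over 100 CPM, 0.39 from 20 to 100 CPM, 0.76 from 5 to 20 CPM, 1.64 from 1 to 5 CPM and 2.65 below 1 CPM. Npas4 and Fosb, with means of 3.88 and 1.28 CPM, lay in the ranges with wide intervals. Npas4 had 0, 2.08 and 3.83 CPM in the home cage and 5.34, 5.64 and 6.39 CPM after CFC. Its groups did not overlap, but it was not called by edgeR or DESeq2.

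The same treatment had been given to mice with the tag in parvalbumin (PV) cells, genotype PV:Cre/Ribotag (batch 3, 3 CFC and 3 home cage libraries). In batch 2, mice of the SST line had received the convulsant pentylenetetrazol, PTZ, a blocker of GABA receptors (3 libraries), or saline (4 libraries). The fits of batch 3 also held 3 home cage libraries of the PV Nr4a1 conditional knockout (cKO), and those of batch 2 held 2 PV saline libraries. These entered the filter, the scaling and the estimate of the spread, but not the groups compared. The 3 tables were normalized separately, so levels are set side by side only loosely. In the PV home cage libraries Pvalb had a mean of 170 CPM, which is within the range of the SST libraries of batch 4, and Sst a mean of 268 CPM, far below them. Pvalb thus did not set these PV libraries apart. After CFC 0 of 15150 genes (0%) passed in PV libraries by edgeR and 2834 had a p under 0.05 before adjustment, while 17 of 11784 genes (0.144%), all higher, passed in SST libraries after PTZ.

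The 5 genes called in SST libraries had positive values in PV libraries too. Egr1 had 66.6, 48.9 and 66.6 CPM in the PV home cage and 158, 196 and 182 CPM after CFC, a log2 value of 1.56 ± 0.30 against 2.28 in SST. Fos had 28.9, 17.6 and 36.2 CPM and then 78.2, 75 and 93.5 CPM (1.58 ± 0.45 against 3.11). For Nr4a1 the order was turned, with 2.90 ± 0.37 in PV and 2.43 in SST. Junb gave 0.92 ± 0.20 in PV and Dusp1 0.67 ± 0.18, and none of these PV values passed over all genes. Tested as a difference of responses, SST minus PV, Fos had 1.58 ± 0.66 (adjusted p = 0.277, edgeR), Egr1 0.77 ± 0.37 (0.332), Dusp1 0.57 ± 0.24 (0.272), Junb 0.47 ± 0.27 (0.431) and Nr4a1 -0.42 ± 0.46 (0.709). Of 16081 genes 0 (0%) passed this test by edgeR and 2452 had a p under 0.05 before adjustment, whereas DESeq2 called 172 higher and 51 lower. Without PV home cage replicate 1, edgeR called 621 higher and 260 lower. The count of 0 thus depended on the tool as well as on that library, and the cause was not tested.

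Vascular transcripts were also measured in the PV experiment. In its libraries the vascular list had a median of -0.24, and Acta2 had 39.8, 67.1 and 60.9 CPM in the home cage and 14.8, 38.9 and 59 CPM after CFC, with overlap. The difference of responses for Acta2 was -3.53 ± 1.28 (adjusted p = 0.236, edgeR). Astrocyte markers had a median of 0.49 in PV and ribosomal proteins -0.67, both of the sign opposite to SST. These medians were not tested against each other.

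The response to CFC was also set beside the response of the SST line to PTZ. Egr1 had 498, 361, 339 and 348 CPM after saline and 1045, 1409 and 1316 CPM after PTZ, a log2 value of 1.70 ± 0.17, and Nr4a1 1.76 ± 0.35. Both values lay below those after CFC, but the differences of 0.61 ± 0.23 (adjusted p = 0.565, edgeR) and 0.70 ± 0.49 (0.790) did not pass. Fos had 3.77 ± 0.37, Dusp1 2.48 ± 0.27 and Arc 2.15 ± 0.17 after PTZ, and Fos was at 48.5, 16.4, 24.9 and 30.8 CPM with saline and 225, 504 and 504 CPM with PTZ. The differences were -0.64 ± 0.54 for Fos, -1.27 ± 0.34 for Dusp1 (adjusted p = 0.291, edgeR) and -0.86 ± 0.52 for Arc, without a call. Btg2, at 1.05 after CFC and 2.86 ± 0.40 after PTZ, also missed it (-1.78 ± 0.55). Dusp6 and Rasl11a had values near each other with both stimuli, 1.28 and 1.47 ± 0.18 for Dusp6 and 1.39 and 1.47 ± 0.21 for Rasl11a, with differences of -0.17 ± 0.40 and -0.05 ± 0.37. Over the rapid list, 28 of 36 values were positive after CFC (median 0.45) and 34 of 36 after PTZ (median 0.96).

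When the 2 responses of SST libraries were tested against each other, CFC minus PTZ, 10 of 11428 genes passed (0.0875%), all with the lower value for CFC. Fosb, Junb and the G protein regulator Rgs4 were 3 of them. Junb was scarce in batch 2, at 2.06, 1.06, 1.48 and 1.65 CPM after saline and 16.1, 15.8 and 16.8 CPM after PTZ. In batch 4 it had 38.6 to 55.9 CPM in the home cage and 108 to 116 CPM after CFC. Rgs4 had 203, 228 and 186 CPM in the home cage and 191, 192 and 195 CPM after CFC, and its difference of -0.82 ± 0.14 (adjusted p = 0.0433, edgeR) came from a rise of 0.76 ± 0.10 with PTZ. The remaining 7 were Acta2, Pdgfrb, Col4a2, Podxl, Vim, Ahnak and Degs2. All 7 were lower after CFC than in the home cage, by -1.90 (Col4a2) to -4.17 (Acta2), and had values between -0.0045 (Pdgfrb) and 1.24 (Col4a2) after PTZ. Acta2 was nearly absent from the PTZ experiment, at 0.121 to 0.868 CPM in its 7 SST libraries. The count rested on single libraries: it ranged from 0 to 54 when 1 library was left out, with 54 lower genes without SST home cage replicate 1 and 0 without CFC replicate 3, saline replicate 1, 2 or 4, or any one of the PTZ libraries.

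**Figure D5:**
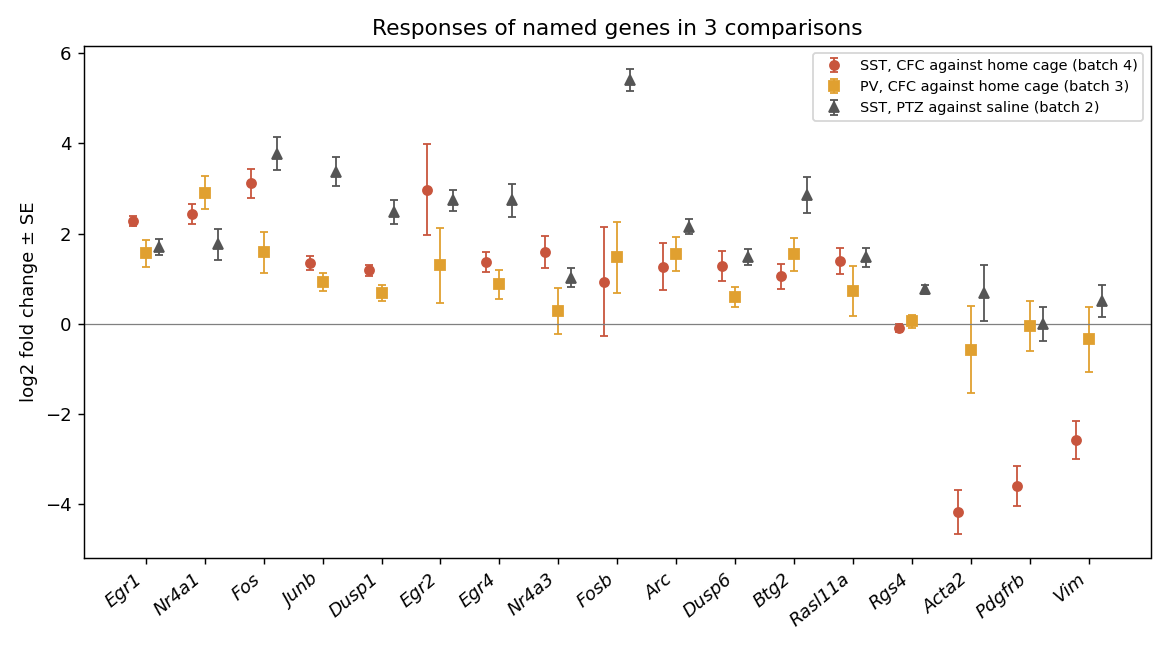
Log2 fold changes with standard errors for named genes in SST libraries after CFC, PV libraries after CFC and SST libraries after PTZ. Egr1, Nr4a1, Fos, Junb and Dusp1 are above 0 in all 3, Fosb and Btg2 are highest after PTZ, and the SST CFC points of Acta2, Pdgfrb and Vim lie below -2, where the tested difference from PTZ passed and that from PV did not.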

How the data were processed

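The authors deposited raw counts per gene in 1 table per batch, as whole numbers. Reads had been handled with STAR 2.5.2a, HTSeq 0.11.0, cutadapt 1.18 and DESeq2, per the submitters' processing notes, which list the builds mm10 and GRCm39 and give no roles. No source used here states how strand was treated, so overlapping and antisense genes may share reads. Of 53465 genes in the batch 4 table, 14614 passed the filter filterByExpr. Testing used edgeR 4.0.16 and its quasi-likelihood method (R 4.3.3, two-sided, robust, TMM scaling), with Benjamini-Hochberg adjustment at a threshold of 0.05. Only the 6 batch 4 libraries entered that model. Each standard error was obtained as |log2 fold change| over the root of the F statistic. Differences of responses were fitted jointly on the genes that 2 tables share, with every library of both batches, PV cKO and PV saline libraries included. Alternatives were DESeq2 1.42.0, limma voom 3.58.1, other scalings, filters and terms, and leaving out each library. The tests were checked on simulated data.

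Named genes are Nr4a1, Fos, Egr1, Sst and Pvalb, every called gene, the 20 uncalled genes with the smallest p at a mean of at least 1 CPM, up to 10 per direction without overlap at 2-fold or more and 5 CPM or more, up to 4 per gene list with the defining markers, and genes that lead the differences of responses or that DESeq2 alone called. Some further members are named for their role. The comparison and the gene lists were chosen with earlier results of these data known. Exon lengths (GENCODE M21) matched 14601 of the genes tested, and promoter windows (RefSeq) 10776.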

Additional observations from a re-analysis of the deposited data

Results flagged for a closer look

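In 10 genes the log2 response of SST libraries to CFC differed from their response to PTZ by a test of the difference itself (edgeR, adjusted p from 0.0402 to 0.0433), with the CFC value the lower each time. Among activity-regulated genes the differences were -4.37 for Fosb, -2.00 for Junb and -0.82 for Rgs4. Junb was scarce in batch 2, at 1.06 to 2.06 CPM after saline, against 38.6 to 55.9 CPM in the batch 4 home cage. Fosb was near 0 in all batch 4 libraries, and its difference was -3.15 (adjusted p = 0.547, edgeR) without home cage replicate 2. The other 7 values were -4.81 for Acta2, -4.11 for Degs2, -3.88 for Podxl, -3.59 for Ahnak, -3.55 for Pdgfrb, -3.10 for Col4a2 and -3.04 for Vim. Batch and stimulus coincide in this comparison and cannot be told apart.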

How the results depend on the processing

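Against 5 genes called higher and 1 lower, DESeq2 called 18 and 94, DESeq2 with the sex term 24 and 128, limma voom 0 lower, the fit without a filter 5 lower, the sex term 5 lower, the vascular score covariate 1 higher and 0 lower, the libraries with Y-linked counts alone 13 lower and a mean of at least 5 CPM 3 lower (the last, DESeq2 with sex and the Y-linked subset were chosen after seeing the data). With RLE factors, without robust estimation and with TMM factors made without vascular genes the counts were 5 and 1. Leaving out 1 library gave 1 to 6 higher and 0 to 31 lower, with 6 and 31 without home cage replicate 1. No named gene reversed a called direction. Signs without a call were less stable: of 177 named genes 36 changed sign with the vascular score covariate, and at most 7 under any other setting. Over these settings the list median ranged from -2.85 to 0.14 for vascular markers and from -0.81 to 0.22 for astrocyte markers.

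With the replicate number as a block, 1 gene was called higher (Egr1) and 1 lower (Acta2), and 0 for SST CFC minus SST PTZ. Correlations of same-numbered deviations were 0.018, 0.0027 and 0.100, within the -0.131 to 0.104 of differently numbered ones. Replicate 1 was the library from females in both groups. With 3 libraries per group these values cannot decide whether the numbers pair libraries.

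For SST CFC minus PV CFC, against 0 and 0, DESeq2 called 172 higher and 51 lower, the fit without a filter 333 and 375, and fits without 1 library 0 to 621 and 0 to 260. For SST CFC minus SST PTZ, against 0 and 10, DESeq2 called 7 and 55, limma voom 2 lower, and fits without 1 library 0 to 5 and 0 to 54. The cause of these shifts was not tested. Genes without overlap numbered 642 to 713 (higher) and 837 to 907 (lower) under other scalings. The half-width of the 95% interval, 0.22 (log2) over 100 CPM and 1.64 from 1 to 5 CPM, limits what could be seen.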

Other observations

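The subtypes of SST cells were followed through 24 markers, of which 16 had positive and 8 negative values (median 0.08). By edgeR and DESeq2 0 were called, with 0 at an unadjusted p under 0.05. Nos1, the marker of long-range projecting SST cells, had 148, 158 and 137 CPM in the home cage and 123, 125 and 138 CPM after CFC (log2 -0.20 ± 0.09, adjusted p = 0.921, edgeR). Mme had 8.22, 9.92 and 4.76 CPM against 16.7, 7.71 and 10.8 CPM, with overlap.

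Kcns1 and Scn4b, channel subunits of fast-spiking cells, had 27.7, 15.4 and 7.07 CPM and 95.1, 63.4 and 22.6 CPM in the home cage, in the same order as Pvalb and Arc in those libraries. After CFC they had 7.86, 9.33 and 7.25 CPM and 37.2, 45.6 and 32 CPM. The spread within the home cage group exceeded the difference between the groups for both genes.

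Shank2, a scaffold protein of excitatory synapses, had 50, 160 and 44.8 CPM in the home cage, with replicate 2 far above, and 30, 29.5 and 48.9 CPM after CFC. The choroid plexus transcript Ttr was at 82.8, 230 and 92.5 CPM and at 98.8, 121 and 191 CPM, highest in home cage replicate 2, which also had the most vascular transcripts.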
